A study of Mus musculus with 15 samples.

Results

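Vessel-rich pixels were grid positions on sections of mouse embryos at embryonic day 11 (E11) and 12 (E12) where transcripts of 7 blood vessel genes were dense. A pixel counted as tissue when its total count reached 0.1 of the 95th percentile of its library. It was called vessel-rich when it held at least 2 counts in all of Cdh5, Pecam1, Kdr, Tie1, Tek, Emcn and Cldn5 and lay in the top 10% of its library by these counts per 10000. The rule selected 572 of the 8309 tissue pixels of 5 libraries, out of 17046 tissue pixels in the 11 transcript libraries of the series. The other 7737 tissue pixels of the same 5 sections served as the comparison.

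The series applied barcoding in tissue to embryo sections: channels laid over a section deliver a first set of barcodes, crossing channels deliver a second set, and a pixel is the square where a pair of them meets. At E11 there were 2 libraries with pixels 25 µm wide and 2 with pixels 10 µm wide, and at E12 there was 1 library with pixels 50 µm wide. The labels give embryo, frozen in OCT after dissection, as the tissue and name no strain, genotype, treatment or sex, and they do not say which embryo or which region a section came from. Sections are treated as replicates here, so p-values measure the spread between sections, which may be technical. A pixel can hold several cells or part of a cell, so a larger share of vessel cells and more RNA per vessel cell cannot be told apart.

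Endothelial cells line every blood vessel and the inside of the heart. They are held together by junction proteins, respond to vascular growth factors through tyrosine kinase receptors, and lie on a basement membrane that mural cells (pericytes and smooth muscle) share. At mid-gestation this network carries blood through the heart, the dorsal aorta, the cardinal veins, the liver and the vessels that grow into the brain.

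Of the 7 genes of the rule, Cdh5 encodes the junction cadherin of endothelium, Pecam1 and Emcn encode surface proteins, Cldn5 a tight junction protein, Kdr the main receptor for VEGF, Tek the receptor for angiopoietins and Tie1 its partner. Promoter sequences are shown as examples for 3 of these genes and for 2 other endothelial surface genes, Cd34 and Adgrf5. Each is the 250 bases before the RefSeq start on build GRCm38.p6, 5′ to 3′ on the strand of the gene, with capitals for the word CAGGAAG or its reverse complement CTTCCTG. The Cd34 window is chr1:194938571-194938820 on the plus strand, Adgrf5 is chr17:43360181-43360430 on the plus strand, Emcn is chr3:137340828-137341077 on the plus strand, Kdr is chr5:75978456-75978705 on the minus strand and Tek is chr4:94739039-94739288 on the plus strand.
Cd34: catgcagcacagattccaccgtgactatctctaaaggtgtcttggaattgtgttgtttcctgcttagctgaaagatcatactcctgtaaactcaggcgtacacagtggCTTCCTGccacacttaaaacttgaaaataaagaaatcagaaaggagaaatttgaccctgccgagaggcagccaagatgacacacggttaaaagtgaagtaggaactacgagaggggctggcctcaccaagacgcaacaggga
Adgrf5: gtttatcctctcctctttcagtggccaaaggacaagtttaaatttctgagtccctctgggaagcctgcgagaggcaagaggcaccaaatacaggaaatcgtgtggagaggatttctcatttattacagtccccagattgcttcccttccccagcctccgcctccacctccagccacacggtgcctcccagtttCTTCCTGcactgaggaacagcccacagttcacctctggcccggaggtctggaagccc
Emcn: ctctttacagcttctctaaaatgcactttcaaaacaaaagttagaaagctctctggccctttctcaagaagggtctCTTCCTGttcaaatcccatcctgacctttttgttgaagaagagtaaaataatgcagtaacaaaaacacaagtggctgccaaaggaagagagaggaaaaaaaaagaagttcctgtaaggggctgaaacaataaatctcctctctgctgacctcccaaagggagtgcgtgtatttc
Kdr: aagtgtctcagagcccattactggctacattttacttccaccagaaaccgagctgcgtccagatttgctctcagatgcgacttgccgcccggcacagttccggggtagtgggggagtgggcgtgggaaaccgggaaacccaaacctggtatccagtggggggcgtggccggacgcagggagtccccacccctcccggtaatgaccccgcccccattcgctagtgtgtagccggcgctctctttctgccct
Tek: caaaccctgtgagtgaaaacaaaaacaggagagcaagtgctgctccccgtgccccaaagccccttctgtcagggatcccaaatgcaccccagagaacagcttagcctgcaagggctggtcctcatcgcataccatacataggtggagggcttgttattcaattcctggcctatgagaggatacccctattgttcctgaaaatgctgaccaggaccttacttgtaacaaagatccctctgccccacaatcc

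The word CAGGAAG holds the GGAA core that ETS family transcription factors bind, and it was chosen after expression values were known. On either strand it lay in 17.6% of the 176 promoters of genes that rose in vessel-rich pixels (31 promoters) and in 2.11% of the 95 promoters of genes that fell (2 promoters). It lay in 10.5% of all 27025 mouse promoters in the table and in 9.07% of the 7956 with a tested gene. Of the 9 endothelial surface and junction genes with a promoter in the table, 5 held it (Adgrf5, Cd34, Egfl7, Rasip1 and Robo4). The rest (Adgrl4, Clec14a, Eng and Myct1) did not, and both such genes shown above are among those with it. Of 5 rule genes 1 held it (Emcn, with the match 174 bases before the start). The related word CCGGAAG differs from it by 1 base and holds the same GGAA core. It lay in 14.99% of promoters of tested genes, in 3.98% of those of genes that rose and in 10.5% of those of genes that fell. Of the 9 surface and junction promoters 0 held it. The 2 words with this core thus went in opposite directions among genes that rose. These are matches of letters and not binding sites, and a promoter without a match says only that these letters are absent from this window.

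In the order E11 25 µm replicates 1 and 2, E11 10 µm replicates 1 and 2, and E12 50 µm, the rule took 141, 145, 68, 86 and 132 pixels. These were 8.27%, 9.64%, 4.16%, 4.46% and 8.60% of the tissue pixels of each section. All sets of 5 values below follow this order. At 10 µm many pixels past the rate limit held a single count. The minimum of 2 left out 96 and 107 pixels there, against 30, 6 and 22 in the other sections.

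The rate limits were 8.14, 7.87, 5.83, 6.37 and 6.77 rule gene counts per 10000. Just inside, the lowest rates were 8.16, 7.91, 6.16, 6.65 and 6.82, and just outside, the highest rates among pixels with 2 counts were 7.91, 7.80, 5.75, 6.17 and 6.76. The limit thus cuts a continuous range. Median rates inside were 15.9, 13.2, 14.3, 18.6 and 9.83, and the highest single pixels reached 102, 60.2, 104, 95.7 and 26.9. Most other pixels, between 60.3% at E12 and 89.2% in E11 10 µm replicate 1, held no count of the 7 genes.

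The evidence per pixel differed with pixel width. Only 1 of the 7 genes was seen in 24.8% and 12.4% of vessel-rich pixels at 25 µm, in 57.4% and 51.2% at 10 µm and in 10.6% at E12. No pixel held all 7. The pixels held 39.1% to 54.0% of all rule gene counts found in tissue.

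Depth per pixel also moved with the class, and the rule itself divides by the pixel total. Median totals in vessel-rich and other pixels were 1924 and 2622, 3300 and 4561, 1687 and 1230.5, 1431.5 and 1116.5, and 3642.5 and 3558. The vessel-rich pixels were therefore shallower than the others at 25 µm, deeper at 10 µm and alike in depth at E12. Summed over pixels, they held 310979, 540451, 133283, 143574 and 522930 counts. Levels are counts per 1000000 counts of such a sum (CPM), so those of the 10 µm sums rest on the fewest counts.

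**Figure D1:**
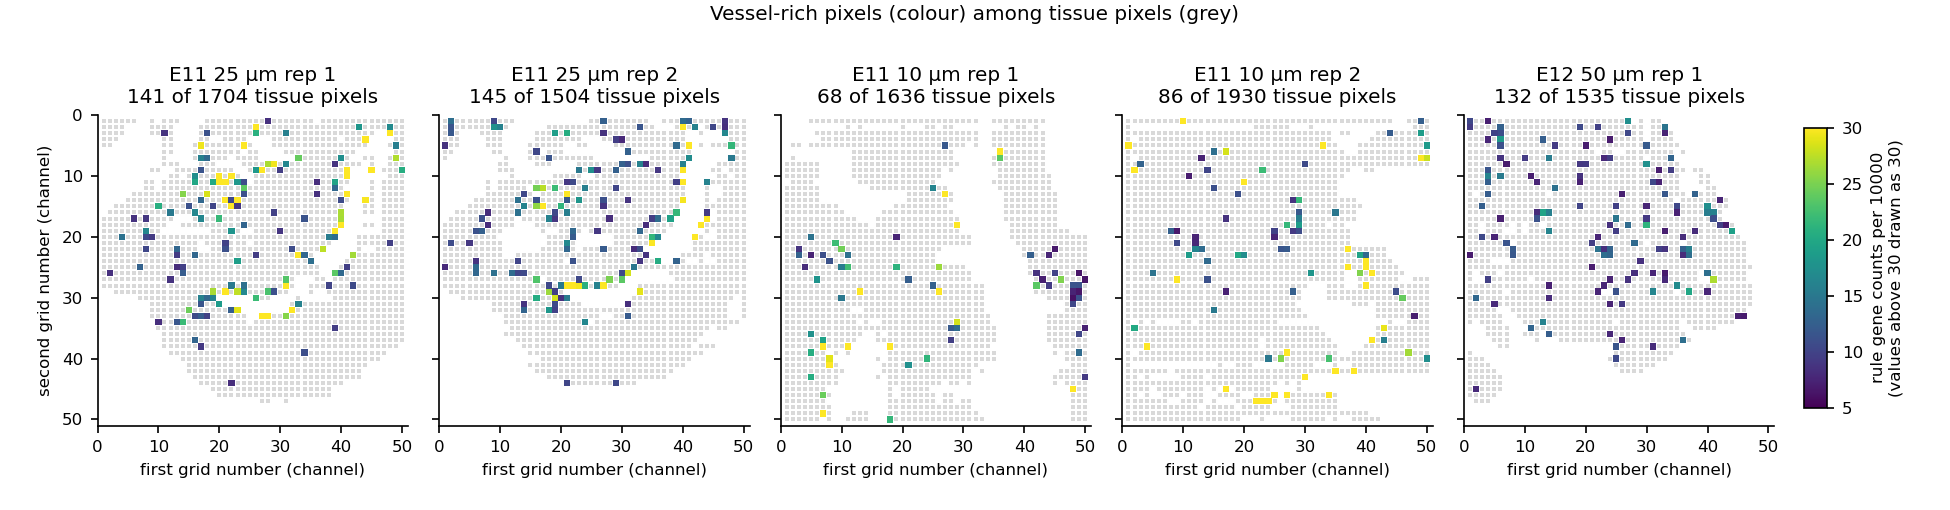
Position of vessel-rich pixels (coloured by rule gene counts per 10000) among the other tissue pixels (grey) in each section, with the 2 grid numbers of a pixel on the axes. At 25 µm the 141 and 145 pixels trace curved lines and a dense cluster, while at 10 µm and at E12 they are more scattered.

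In each of the 5 sections, vessel-rich pixels had a vessel-rich neighbour more often than other pixels did, and the rule used no position. By shared edges, 49.6%, 55.9%, 29.4%, 32.6% and 38.6% of vessel-rich pixels touched another one. Of the other pixels, 22.8%, 23.5%, 12.6%, 13.7% and 26.6% touched one. The share was higher in 5 of 5 sections, by 21.4 ± 8.12 percentage points (mean ± SD, n = 5), with p = 0.0625 in a two-sided exact permutation test, the smallest p that 5 sections allow. The map of pixel positions shows them along curved lines in both 25 µm sections.

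Lanes of the grid did not hold them evenly. Among lanes with at least 10 tissue pixels, the fullest held 22.5% and 27.0% vessel-rich pixels in the first direction at 25 µm, 19.4% and 17.4% at 10 µm and 21.6% at E12, and in each section some lanes held none. Grid positions are shared between libraries by construction. Of the 141 and 145 vessel-rich positions of the 25 µm sections, 21 were the same in both (14.9% and 14.5%), while 8.80% of the other tissue positions of replicate 1 were vessel-rich in replicate 2. The 10 µm sections shared 4 positions (5.88% and 4.65% of theirs). How the sections lie relative to each other on the grid is not given, so these shares describe positions and not vessels.

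The rule genes themselves are given as levels with no test, since they chose the pixels. Cdh5 stood at 460, 562, 225, 341 and 319 CPM inside, against 16.4, 31.8, 14.8, 12.7 and 41.7 outside. Kdr stood at 283, 322, 525, 501 and 247 CPM inside and Pecam1 at 296, 161, 195, 320 and 218. The others were seen less often: Cldn5 gave 83 counts in all vessel-rich pixels together, and its level was 135 CPM in E11 25 µm replicate 1 and 6.97 in E11 10 µm replicate 2. Over sections, 25.6% to 74.5% of vessel-rich pixels held a Cdh5 count and 1.16% to 22.7% a Cldn5 count, against 1.74% to 14.5% and 0.271% to 2.82% of the others.

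To read each rule gene in pixels it had not helped to choose, pixels were chosen by the other 6 genes and the gene left out was tested. All 7 were higher in the pixels chosen without them, by 1.84 to 2.60 on the log2 scale, with adjusted p from 4.73e-11 to 7.29e-04 in edgeR's quasi-likelihood test on counts summed per section. Cdh5 then stood at 249, 396, 84.9, 120 and 202 CPM against 31.0, 43.9, 22.8, 25.6 and 53.5, a log2 change of 2.60 ± 0.19 (SE). Tek, the angiopoietin receptor, stood at 58.3, 81.2, 15, 68.8 and 43.3 CPM against 7.99, 10.2, 7.80, 19.5 and 16.5, a change of 2.20 ± 0.29. The weakest change was that of Kdr, at 1.84 ± 0.20.

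In E11 10 µm replicate 1, Pecam1 and Cldn5 went the other way, on very few counts. There Pecam1 was lower in the chosen pixels (21.7 against 26.7 CPM) and so was Cldn5 (7.13 against 9.05), while both were higher in the other 4 sections. Over all 5 sections Cldn5 gave 56 counts in the pixels chosen without it and Pecam1 gave 207. The 10 µm sums were the smallest, so these 2 readings do not set the section apart. This section also had the largest share of vessel-rich pixels with 1 rule gene seen. All 7 genes passed the test without it.

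**Figure D2:**
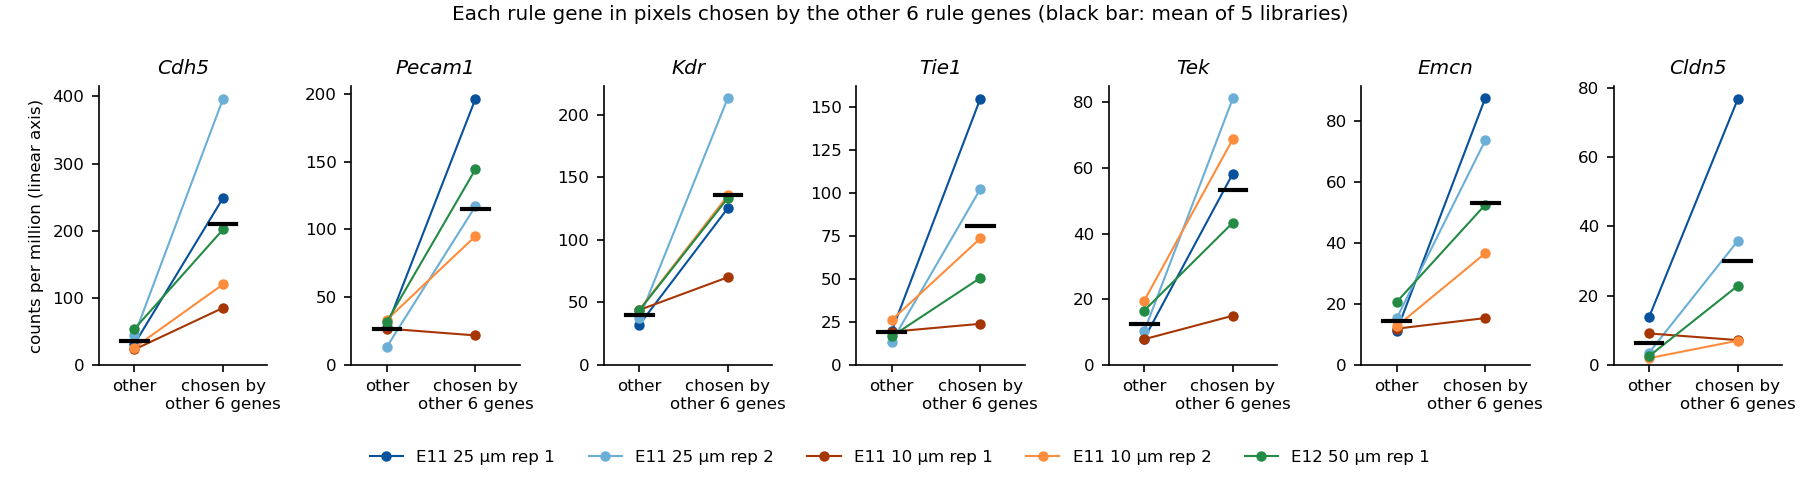
Level of each rule gene (CPM, linear axes that differ between panels) in pixels chosen by the other 6 genes and in other tissue pixels, with 1 line per section and black bars for means of 5. All lines are higher in the chosen pixels except those of Pecam1 and Cldn5 in E11 10 µm replicate 1.

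With the 7 genes taken out, the vessel-rich pixels were compared with the other tissue pixels across all genes, section by section. Endothelial surface and junction genes, vascular receptors, basement membrane genes and mural genes were among those that rose, and some neural progenitor and neuron genes were among those that fell. Of 11266 genes tested, 365 were called (3.24%), of which 240 rose (2.13%) and 125 fell (1.11%), at an adjusted p under 0.05 in edgeR's quasi-likelihood test with section as a block. The median log2 change over all tested genes was -0.04. Of the 365 genes called, 225 lay on the same side in 5 of 5 sections. Among all 11266 tested genes, 488 (4.33%) were higher in 5 of 5 sections and 807 (7.16%) were lower. Without E11 25 µm replicate 1 the counts were 100 and 36, without replicate 2 they were 79 and 20, and DESeq2 called 159 and 14. With no filter on low counts, 27044 genes were tested and 243 were higher and 271 lower, so the balance turned towards lower genes.

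Cd93 and Mmrn2, a receptor on endothelium and the matrix protein it binds, were among the largest rises. Mmrn2 (chromosome 14, 34375465 to 34404287) stood at 264, 268, 37.5, 62.7 and 91.8 CPM in vessel-rich pixels and at 33.2, 23.5, 13.5, 19.6 and 24.4 in the others. The change was 2.64 ± 0.25, with adjusted p = 9.32e-07. The vessel-rich level was higher in every section, and the levels inside were lowest at 10 µm. Cd93 (chromosome 2, 148436640 to 148443563) stood at 190, 252, 105, 55.7 and 260 CPM against 24.2, 28.3, 22.6, 17.3 and 59.1. Its change was 2.58 ± 0.18, with adjusted p = 2.04e-13.

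The other 13 of the 15 largest rises spanned changes of 2.18 to 2.58. Ptprb, a phosphatase that acts on the Tek receptor, rose by 2.58 ± 0.32, and Nos3, the endothelial nitric oxide synthase, by 2.38 ± 0.38. Icam2 and Esam, adhesion proteins of endothelium, rose by 2.37 ± 0.26 and 2.24 ± 0.28. Esam was at 80.4, 74.0, 105, 62.7 and 42.1 CPM against 16.8, 9.53, 10.3, 15.8 and 21.6, so that the classes did not overlap across sections. Plvap, of the diaphragm of vessel pores, was at 132, 109, 15, 104 and 34.4 CPM against 13.9, 17.4, 10.7, 21.9 and 14.4, and here the 10 µm replicate 1 level lay within the range of the other pixels. Cyyr1, Sox7, Acvrl1, Flt1, Ecscr, Ushbp1, Clec14a and Pcdh12 completed the 15. Gene positions are those of GENCODE M21 on GRCm38.

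**Figure D3:**
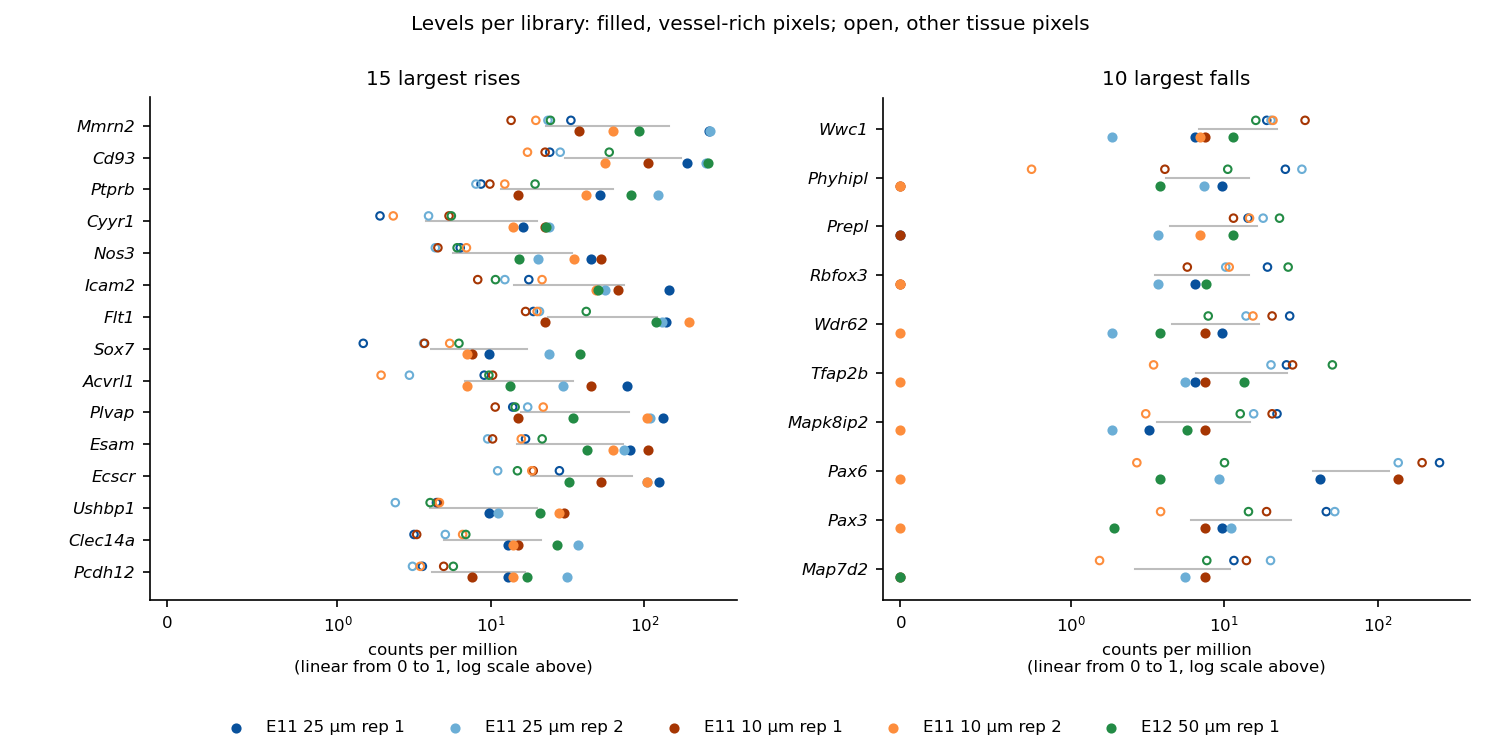
Levels per section (CPM, linear from 0 to 1 and log scale above) of the 15 largest rises and 10 largest falls that lay on the same side in 5 of 5 sections. Filled points are vessel-rich pixels, open points other tissue pixels, and grey lines join the means. The filled point lies beyond the open point of the same colour for every gene shown, as the choice of genes required, and many filled points of falling genes sit at 0.

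Gene lists by role were then read from the same test. They were chosen with results of these data known, and beside each stands the background of 2.13% higher and 1.11% lower. Of 18 endothelial surface and junction genes, 16 passed the filter on low counts and 16 of these rose, with changes from 1.39 (Egfl7) to 2.64 and a median of 2.12. A gene can pass that filter through the vessel-rich pixels alone. With no filter 18 of 18 rose. Summed over the list, the level was 2039, 1669, 840.3, 1031 and 944.7 CPM inside, which was 5.55, 6.77, 2.96, 2.81 and 2.98 times the level outside.

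Vascular growth factor receptors rose for 5 of 9 genes, with a median of 1.5. Flt1, which binds VEGF and holds it back from Kdr, was at 138, 131, 22.5, 195 and 119 CPM against 18.9, 20.7, 16.8, 20.0 and 41.8. Its change was 2.34 ± 0.25 (adjusted p = 2.26e-06), smallest in E11 10 µm replicate 1. Acvrl1, the endothelial receptor of BMP9, rose by 2.32 ± 0.39, the apelin receptor Aplnr by 1.93 ± 0.37, Calcrl by 1.82 ± 0.41 and the VEGFC receptor Flt4 by 1.5 ± 0.41. Calcrl pairs with Ramp2 to form the receptor of adrenomedullin, and Ramp2 rose by 1.95 ± 0.35.

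Of 12 ligands listed, 6 were tested with a median of 0.63, and Angpt2 (1.73 ± 0.44) and Vegfc (1.34 ± 0.36) rose. Angpt2, an antagonist of Tek made by endothelium itself, was at 32.2, 20.4, 0, 6.97 and 11.5 CPM against 5.89, 4.62, 0.821, 6.93 and 5.02, so it was higher at 25 µm and at E12, close to equal in E11 10 µm replicate 2, and without a count in E11 10 µm replicate 1. Vegfa, made mostly by tissue around vessels, was at 16.1, 16.7, 7.50, 0 and 7.65 CPM against 12.2, 15.8, 15.2, 17.7 and 13.2, with a change of -0.37 and an adjusted p of 0.816. Vegfb had a change of 0.03 and an adjusted p of 0.970. Neither difference was beyond the spread between sections.

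Of 17 endothelial transcription factors, 14 were tested and 8 rose, with a median of 0.93. Sox7 rose by 2.32 ± 0.42 and Epas1, a hypoxia factor, by 1.88 ± 0.33. The flow-responsive factor Klf2 rose by 1.83 ± 0.47 and Mef2c by 0.68 ± 0.18. Members of the ETS family were among them: Elk3 (1.16 ± 0.22), Ets1 (1.16 ± 0.19), Fli1 (0.89 ± 0.19) and Ets2 (0.84 ± 0.24), and the call of Ets2 was lost under 15 of 19 alternatives. Ets1 was at 86.8, 77.7, 82.5, 90.5 and 115 CPM against 34.1, 29.8, 27.1, 59.3 and 58.9, higher in every section. Erg, another ETS factor of endothelium, had a change of 1.22 with an adjusted p of 0.101, from few counts (9.65, 22.2, 7.50, 6.97 and 30.6 CPM inside).

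Of 13 arterial genes 8 were tested and 4 rose, with a median of 0.82, and 2 of them had the largest changes among all list members. Gja4 and Gja5 encode the connexins of arterial endothelium. Gja4 was at 135, 115, 30, 6.97 and 57.4 CPM against 13.9, 4.76, 4.92, 8.08 and 9.37, a change of 3.18 ± 0.36 with adjusted p = 1.11e-05. Gja5 was at 83.6, 176, 0, 6.97 and 74.6 CPM against 5.05, 9.25, 2.46, 3.85 and 19.4, a change of 3.15 ± 0.47. Both were high at 25 µm and at E12. At 10 µm Gja4 was higher in 1 of 2 sections and Gja5 in 1 of 2, on 0 to 4 counts each, which is why neither is among the 15 largest rises. Notch4 rose by 1.67 ± 0.33 and Unc5b by 0.90 ± 0.24, while the arterial ligand Efnb2 had a change of 0.73 and an adjusted p of 0.0594. Hey1, Jag1 and Notch1 had changes of 0.55, 0.40 and -0.30, with adjusted p of 0.580, 0.603 and 0.732. Notch1 was higher in 1 of 5 sections.

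No venous or lymphatic gene rose among 5 tested, and the median was 0.38. Nr2f2, the factor that sets venous identity, was at 232, 253, 233, 195 and 287 CPM against 164, 208, 172, 207 and 187, a change of 0.38 with an adjusted p of 0.0509. Ephb4, the ephrin receptor that marks veins, had a change of 0.43 and an adjusted p of 0.217. Pdpn fell by 1.39 ± 0.37 on the log2 scale. Pdpn marks lymphatic endothelium but is also made by other embryonic tissues, and it was at 19.3, 14.8, 15, 27.9 and 22.9 CPM against 89.8, 88.8, 34.1, 11.9 and 24.1, so it was lower at 25 µm and in E11 10 µm replicate 1, nearly equal at E12 and higher in E11 10 µm replicate 2.

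Genes of particular vessel beds were read next. Of 3 endocardial genes, Npr3 rose by 1.66 ± 0.25 and was at 67.5, 99.9, 22.5, 62.7 and 66.9 CPM against 16.2, 20.7, 5.74, 21.9 and 39.8. Nfatc1, the valve endocardium factor, had a change of 1.17 and an adjusted p of 0.0509. The third, Nrg1, had a change of -0.20 and an adjusted p of 0.931, and it was higher in 2 of 5 sections. Of 3 sinusoidal genes tested, the scavenger receptors Stab1 (1.71 ± 0.19) and Mrc1 (1.10 ± 0.32) rose. Stab2 had a change of 0.34 and an adjusted p of 0.852, and the untested Clec4g and Fcgr2b had 0 counts inside. Mrc1 is also a gene of tissue macrophages, and its call was lost under 13 of 18 alternatives. Stab1 was at 222, 133, 120, 160 and 89.9 CPM against 55.9, 22.3, 47.2, 62.3 and 46.2, higher in every section. Of 10 brain vessel genes 5 were too low to be tested and none of the other 5 passed, with a median of -0.21. Their changes ran from -0.42 for the glucose transporter Slc2a1 (adjusted p of 0.491, higher in 1 of 5 sections) to 0.82 for Adgra2, a receptor needed for brain vessel growth (adjusted p of 0.138, higher in 4 of 5). Of the tip cell genes 2 of 5 were tested and none passed. Igfbp3 had a change of 0.85 and an adjusted p of 0.142, and Esm1 was too low to be tested.

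Genes of the vessel wall rose together with those of the lining. Of 11 mural genes tested 6 rose, with a median of 1.30: Mcam (1.60 ± 0.32), Tagln (1.52 ± 0.17), Rgs5 (1.49 ± 0.32), Cnn1 (1.35 ± 0.27), Cspg4 (1.17 ± 0.25) and Pdgfrb (0.84 ± 0.22). The other 5 were not called: Myh11 (1.46), Acta2 (1.30, adjusted p of 0.287), Abcc9 (1.17), Des (0.65) and Notch3 (-0.15, higher in 2 of 5 sections). Tagln and Cnn1 are contractile genes of smooth muscle, also used by embryonic heart muscle, and Rgs5, Cspg4 and Pdgfrb mark pericytes. Tagln was at 344, 274, 37.5, 132 and 70.8 CPM against 94.0, 70.3, 15.2, 77.3 and 36.5. The pericyte receptor Pdgfrb was higher in only 3 of 5 sections, and at 10 µm it was lower in both (22.5 and 27.9 CPM against 39.0 and 32.7). Mural calls rested on the 25 µm sections: 3 genes rose when replicate 1 was left out and 1 rose when replicate 2 was left out.

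Of 12 basement membrane genes 7 rose, with a median of 1.20. Col4a1, a main chain of vessel basement membrane, was at 2177, 1192, 1305, 508 and 824 CPM against 453, 251, 433, 179 and 334. Its change was 1.81 ± 0.21, with adjusted p = 0.0226 and levels higher in every section. Col15a1 (1.94 ± 0.41), Col4a2 (1.75 ± 0.18), Lama4 (1.5 ± 0.16), Hspg2 (1.42 ± 0.15), Nid1 (1.27 ± 0.16) and Col18a1 (1.13 ± 0.12) also rose. Col4a1 and Col4a2 overlap head to head on chromosome 8, but only from 11312805 to 11312826. How reads in overlaps were assigned is not stated, so counts from that short stretch could be shared. Counts are uncertain for the same reason for Eng, Egfl7, Plvap, Stab1, Tagln, Gja5, Angpt2, Col18a1, Elk3, Fli1, Nefl and Adgra2, since each overlaps another tested gene. This also holds for Ramp2 and Efnb2, whose overlaps lie on their own strand.

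**Figure D4:**
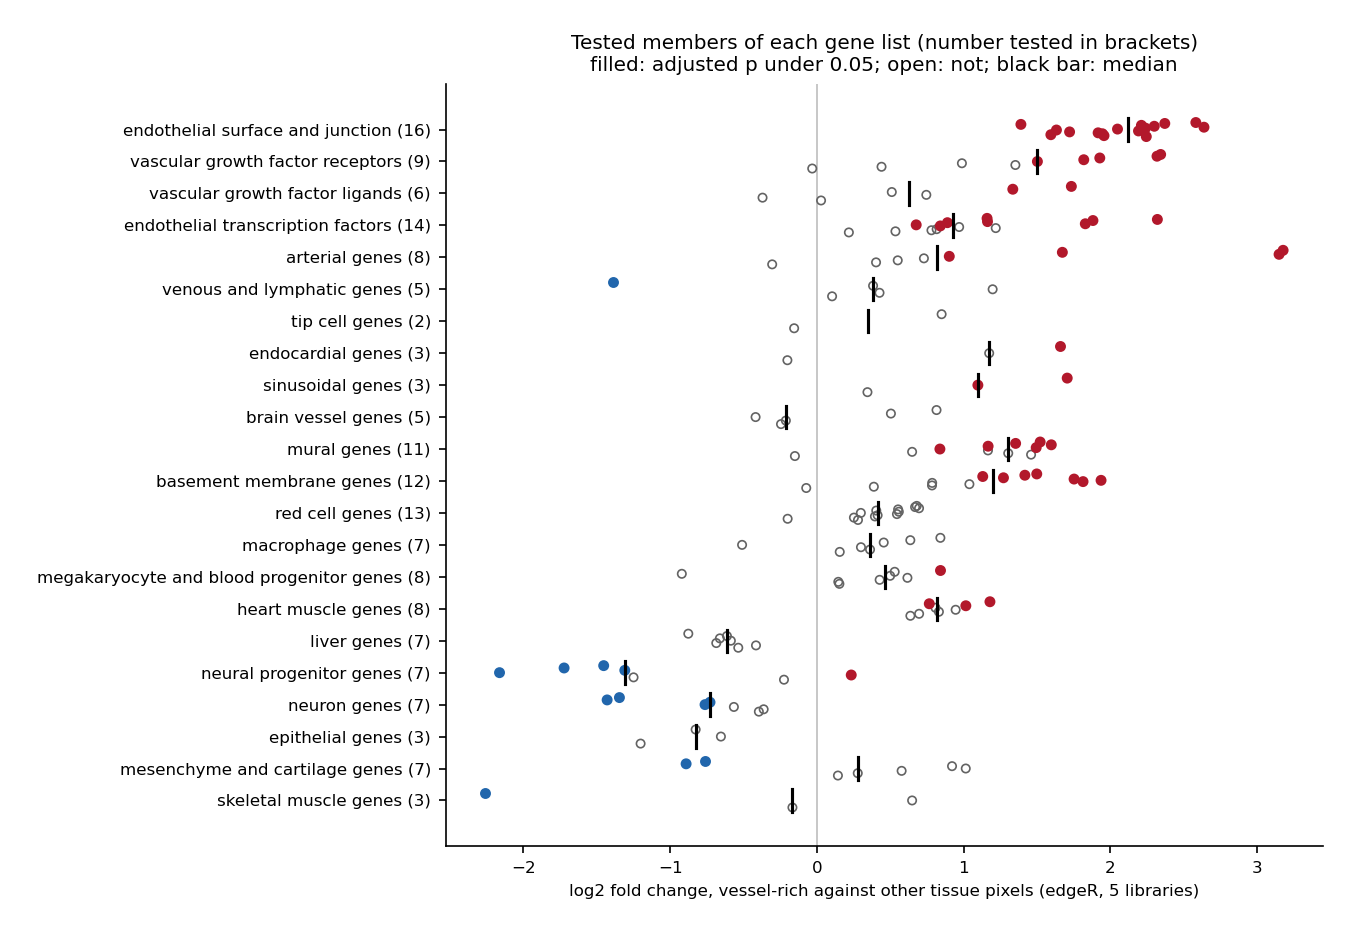
Log2 change between vessel-rich and other tissue pixels (edgeR, 5 sections) for each tested gene of the lists, with filled points at adjusted p under 0.05, open points above it and black bars for medians. All 16 endothelial surface and junction genes lie above 1, neural lists lie mostly below 0, and red cell genes lie between with no filled point.

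Markers of other cell types were read from the same fit. Of 13 red cell genes edgeR called none, with a lowest adjusted p of 0.284 (Hbb-y), and DESeq2 called 3 as higher. Their median change was 0.41, and 12 of 13 were above 0. Summed over the list, the level was 2.03, 2.06, 1.77, 0.961 and 1.03 times that of the other pixels, so blood transcripts were higher at 25 µm and in E11 10 µm replicate 1 and close to equal in the remaining sections. The embryonic globin Hba-x was at 5332, 4918, 5440, 3873 and 3568 CPM against 2520, 2142, 3266, 4151 and 2452, with an adjusted p of 0.345. When the 10% of pixels richest in red cell genes were left out, 16 of 16 endothelial surface and junction genes rose, with a median of 2.15.

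Of 8 heart muscle genes 3 rose, with a median of 0.82: Myl2 (1.18 ± 0.20) and Tnni3 (0.77 ± 0.19), of the contractile apparatus, and the hormone gene Nppa (1.02 ± 0.30), whose call was lost under 15 of 18 alternatives. The summed level was 7113, 4174, 75.03, 5475 and 1681 CPM inside, which was 2.80, 1.86, 1.09, 1.10 and 1.52 times the level outside. Heart transcripts were thus far lower in E11 10 µm replicate 1 than in the other sections. With the 10% of pixels richest in heart genes left out, 16 of 16 surface and junction genes and 6 of 10 mural genes rose. No heart gene was called there, but the pixels left out were picked by these same heart genes. That loss of calls thus follows in part from the choice. None of 7 macrophage genes tested was called, with a median of 0.36, and of 8 megakaryocyte and blood progenitor genes only the stem cell factor receptor Kit rose (0.84 ± 0.25), with a list median of 0.46 and the call lost under 11 of 18 alternatives. No liver gene of 7 was called. Their median was -0.61 and all 7 were below 0, and the call depended on the pixel rule. At the top 5% in place of the top 10%, 7 of 7 fell with a median of -1.52, and with at least 3 rule gene counts 2 fell. With the 10% of pixels richest in liver genes left out, none was called and the median was 0.09. The pixels left out were picked by these same liver genes, so that reading also follows in part from the choice. The part of blood, heart or liver pixels in the changes of other genes was not tested beyond these values.

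Of 7 neural progenitor genes 4 fell and 1 rose, with a median of -1.31, and of 7 neuron genes 4 fell, with a median of -0.73. Summed over the list, the progenitor level was 0.884, 0.793, 1.10, 1.13 and 1.154 times that of the other pixels, so it was lower inside at 25 µm and higher inside in the other 3 sections. Most of the summed counts came from Vim (2540 inside and 30826 outside, against 435 and 7178 for Nes, the next). Vim was also the only gene of that list with a change above 0, so the sum does not describe the rest of the list. The neuron level was 0.835, 0.441, 1.27, 0.740 and 0.485 times that of the other pixels, higher inside in E11 10 µm replicate 1 alone. Sox2, a factor that keeps neural progenitors dividing, was at 22.5, 35.2, 45, 13.9 and 26.8 CPM against 116, 212, 101, 6.54 and 33.1, and it fell by 1.72 ± 0.31 on the log2 scale. The gap was widest at 25 µm, and E11 10 µm replicate 2, where Sox2 was lowest in both classes, went the other way. Pax6, a factor of the eye and forebrain, fell by 2.16 ± 0.38, the Notch target Hes5 by 1.45 ± 0.27 and the radial glia gene Fabp7 by 1.31 ± 0.26. The RNA-binding neuron genes Elavl4 and Elavl3 fell by 1.43 ± 0.32 and 1.35 ± 0.28, Nefl of the neurofilament by 0.76 ± 0.23 and Dcx of migrating neurons by 0.73 ± 0.22. Vim, an intermediate filament gene shared by progenitors, mesenchyme and endothelium, rose by 0.23 ± 0.06. The call was lost under 14 of 19 alternatives for Vim, 11 of 19 for Dcx and 10 of 19 for Nefl. DESeq2 called none of the 14 genes of these lists, and without E11 25 µm replicate 2 the neuron list had no call.

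The 10 largest falls were all read from few counts in vessel-rich pixels, between 4 and 38 over all 5 sections. A gene that falls can pass the filter on low counts through the other pixels alone. Pax3, a factor of the dorsal neural tube and of muscle precursors (chromosome 1, 78101267 to 78197134), was at 9.65, 11.1, 7.50, 0 and 1.91 CPM against 46.3, 52.5, 18.9, 3.85 and 14.4. It fell by 2.26 ± 0.40 on the log2 scale, with adjusted p = 2.31e-04, from 11 counts inside and 737 outside. Tfap2b, a factor of neural crest and dorsal neural tube, fell by 1.92 ± 0.39 and Rbfox3, a marker of mature neurons, by 1.78 ± 0.52. Map7d2, Pax6, Mapk8ip2, Wdr62, Prepl, Phyhipl and Wwc1 completed the 10. The call was lost under 12 of 16 alternatives for Rbfox3, 13 of 18 for Wdr62, 10 of 18 for Prepl, 8 of 14 for Mapk8ip2, 7 of 13 for Map7d2 and 5 of 9 for Phyhipl. Of the 38 Pax6 counts in vessel-rich pixels, 18 came from E11 10 µm replicate 1.

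Of 7 mesenchyme and cartilage genes 2 fell and the other 5 were above 0 without a call. The cartilage collagen Col2a1 fell by 0.76 ± 0.11 and Sox9, the factor that drives it, by 0.89 ± 0.18, with a list median of 0.28. Col2a1 was at 277, 150, 285, 34.8 and 298 CPM against 438, 255, 361, 77.3 and 606, lower in every section. The fibrillar collagens Col1a1 and Col1a2 had changes of 1.01 and 0.58, with adjusted p of 0.428 and 0.467. None of 3 epithelial genes tested was called. Epcam had a change of -1.20 and an adjusted p of 0.174. Of 3 skeletal muscle genes tested only Pax3, named above, was called.

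Pixel width at E11 was compared through the vessel-rich effect itself, taking the effect at 10 µm minus that at 25 µm in 1 fit with 3 groups. Each width had 2 sections, and the labels do not give their embryo or region. Heart muscle genes summed to 7113 and 4174 CPM inside at 25 µm and to 75.03 and 5475 at 10 µm. Width and the region of the sections cannot be told apart. Of 11266 genes 58 differed (0.515%), 9 with the effect higher at 10 µm (0.0799%) and 49 lower (0.435%). For all 49 the effect at 25 µm was above 0, which choosing genes by a lower effect at 10 µm itself favours. The share above 0 among all tested genes was not counted. DESeq2 called none of them, with 279 genes at an unadjusted p under 0.05 against 930 in edgeR. Leaving out single sections gave 11 to 115 calls.

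Lining, wall and matrix genes were among the 49. Ramp2 had effects of 2.84 at 25 µm and 0.46 at 10 µm, a difference of -2.37 ± 0.65 with adjusted p = 0.0483. Vwf, the clotting factor stored in endothelium, had 2.91 and 0.96, a difference of -1.95 ± 0.51. Nrp1, a co-receptor of VEGF and semaphorins, had 1.48 and -0.20, a difference of -1.69 ± 0.36. The smooth muscle actin Acta2 had 2.06 and 0.61, a difference of -1.46 ± 0.23, and it was at 614, 772, 30, 557 and 312 CPM inside against 146, 190, 27.9, 339 and 238.4. Of 12 basement membrane genes 4 differed (Fn1, Lamb1, Sparc and Col4a1), and the smallest difference among them was that of Col4a1, with effects of 2.27 and 1.53.

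Marker genes of other cell types differed in the same direction. Of 8 heart muscle genes 6 had lower effects at 10 µm, between -1.26 (Myh7) and -0.76 (Myl7), as had 2 of 13 red cell genes and 2 of 7 mesenchyme genes. Their part in the differences of vessel genes was not tested. Several of the largest differences rested on very few counts at 10 µm. Pla2g4a, Pcsk5 and Scap had 0 or 1 count in each 10 µm vessel-rich sum against 10 to 35 in each at 25 µm. The Pax6 effect was -3.07 at 25 µm and -0.57 at 10 µm, and without E11 10 µm replicate 1 the difference of 2.49 became -2.87 with an adjusted p of 0.946.

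**Figure D5:**
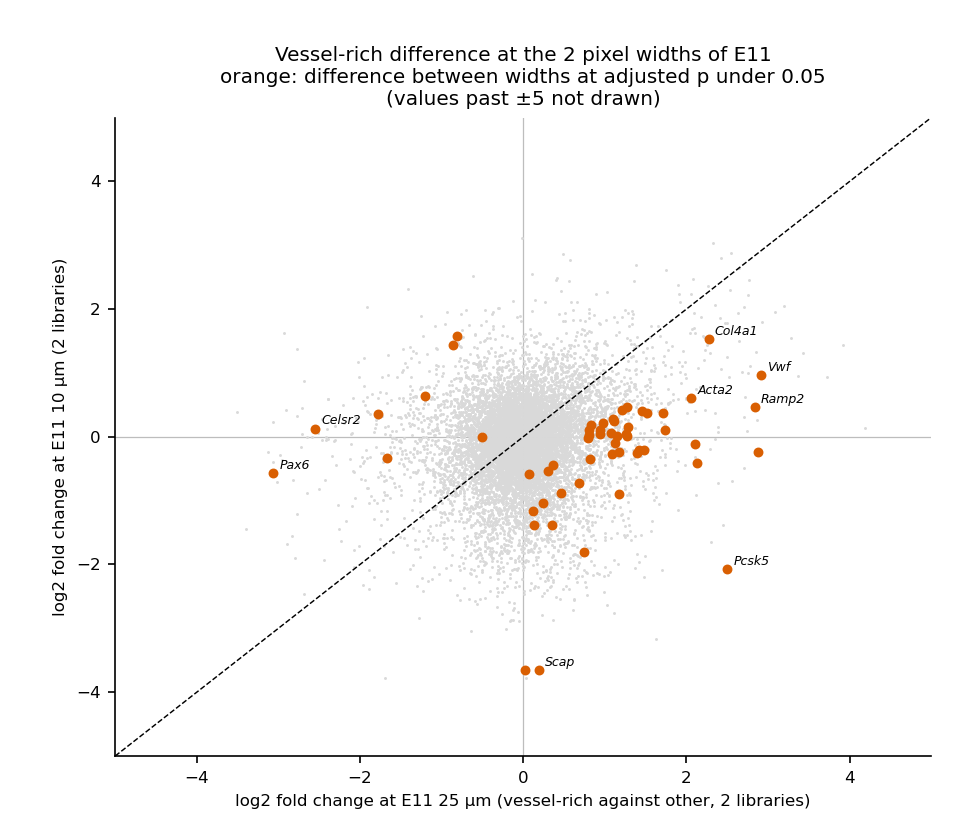
Vessel-rich effect (log2) of each tested gene at 25 µm and at 10 µm, 2 sections each, with genes whose effects differ at an adjusted p under 0.05 in colour and a line of equal effects. The 49 genes with lower effects at 10 µm lie right of 0 on the 25 µm axis, a side that their choice by this difference favours. Called genes beyond 5 log2 units, such as Pla2g4a, are not drawn.

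The E12 section was set against the mean of the E11 effects. Of 11266 genes 17 differed (0.151%), 3 higher at E12 (0.0266%) and 14 lower (0.124%). E12 had 1 section, assumed to vary like those of E11, and it was the only one with 50 µm pixels, so stage and pixel width cannot be told apart. DESeq2 called none, with 56 genes at an unadjusted p under 0.05 against 540 in edgeR. Endothelial lists had no member among the genes that differed in edgeR. So few of all tested genes differed that this does not show alike effects at both stages.

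Genes of red cells accounted for several of the 14. Car2, a carbonic anhydrase of red cells, was at 109, 88.8, 195, 160 and 170 CPM inside against 70.0, 50.0, 75.1, 150 and 428 outside, so it was higher inside in the 4 E11 sections and lower at E12. The difference was -2.03 ± 0.29, with adjusted p = 1.45e-08. The blood cell gene Tspan32 differed by -3.18 ± 0.61. The adult beta globins differed by -1.17 (Hbb-bs) and -1.01 (Hbb-bt). Their level outside was 9122 and 8566 CPM at E12 against at most 222 and 189 in the E11 sections.

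The liver genes Alb and Ttr differed by -1.38 and -1.39. Without the 10% of pixels richest in liver genes 6 genes were called. The 3 genes with higher effects at E12 were Crabp1, a retinoic acid binding protein (1.24 ± 0.20), the heart myosin Myh6 (0.88 ± 0.20) and the growth factor Ptn (0.86 ± 0.21). Crabp1 was at 639 CPM inside and 311 outside at E12, and at 354, 309, 285 and 160 inside against 416, 342, 402 and 129 outside at E11. The Myh6 difference was -0.28 with heart-rich pixels left out, but Myh6 was among the genes that picked those pixels.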

How the data were processed

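Deposited values were counts per gene and pixel, which the authors made per the labels' protocols from barcoded tissue sections, with Nextera XT libraries read on an Illumina HiSeq. Per the submitters' processing notes CASAVA 1.8.2 and GRCh38 were named. The latter is a human build while the tables carry mouse symbols, so the build behind the counts is unknown. GENCODE M21 (GRCm38) gave gene positions and RefSeq the promoters. Whether counting used strand is not given in the sources used here.

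Counts were summed per section and pixel class, and the 7 rule genes were taken out. Vessel-rich sums held 133283 to 540451 counts. Sums were tested in edgeR 4.0.16 (R 4.3.3, quasi-likelihood, TMM, filterByExpr, section as block, Benjamini-Hochberg at 0.05), with DESeq2 1.42.0 as an alternative. The fits were also run on simulated counts with the same dispersion for every gene. That setting is simpler than these data, so it cannot show how reliable the calls are here. Levels are counts per 1000000 (CPM) of a class sum. Changes are log2 ± SE, where SE is the absolute change divided by the square root of the quasi-likelihood F. The degrees of freedom of F differ between genes, so similar ratios of change to SE can have different p. Matches were counted in the 250 bases before a start. Members and lists were chosen with earlier results of these data known, and the motif words after values were seen. Named genes were the 15 largest rises and 10 largest falls on the same side in 5 of 5 sections (symbols of Gm, Rik, Rpl and Rps genes left out), called list members, the first 2 genes of a list, and for width and stage the 3 largest in each direction. A few other list members were named after their values were seen. Alternatives changed the pixel rule, depth matching, filter, scaling, block and sections, and the requirement of 2 different rule genes and the exclusion of heart-rich pixels were added after seeing the data. A few genes that the rule would name are not reported here.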

Additional observations from a re-analysis of the deposited data

Results flagged for a closer look

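Differences of the vessel-rich effect between E11 sections of 10 and 25 µm (10 minus 25, log2, edgeR with adjusted p under 0.05, none called by DESeq2) were found for the genes below, all named genes or list members. Genes of lining, wall and matrix gave -2.37 (Ramp2), -1.95 (Vwf), -1.69 (Nrp1), -1.46 (Acta2), -0.74 (Col4a1), -1.62 (Lamb1), -1.12 (Sparc) and -1.33 (Fn1). Heart muscle genes gave -1.13 (Myh6), -1.26 (Myh7), -1.23 (Tnnt2), -1.22 (Actc1), -1.05 (Myl2) and -0.76 (Myl7), and heart transcripts summed to 75.03 CPM inside and 68.52 outside in E11 10 µm replicate 1. Red cell genes gave -0.91 (Hbb-bt) and -0.87 (Hbb-bs), and mesenchyme genes -1.64 (Col1a1) and -0.83 (Col1a2). The differences resting on the fewest counts were -10.34 (Pla2g4a), -4.57 (Pcsk5), -3.84 (Scap), 2.49 (Pax6) and 2.68 (Celsr2). The fitted value of Pla2g4a depends on the prior count, since the 10 µm sections had no count inside. Pixel width and the region of the sections cannot be told apart in these differences.

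Differences between E12 and the mean of the E11 effects (edgeR, none called by DESeq2) were -3.18 (Tspan32), -2.03 (Car2), -1.01 (Hbb-bt) and -1.17 (Hbb-bs) for blood genes and -1.38 (Alb) and -1.39 (Ttr) for liver genes. Muscle genes gave 0.88 (Myh6), -0.81 (Actc1) and -0.94 (Acta2), and Ptn and Crabp1 gave 0.86 and 1.24. Stage and pixel width cannot be told apart in these values.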

How the results depend on the processing

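The 365 calls between vessel-rich and other pixels stayed within 1.5 times under 10 of 14 alternatives. They were 220 in pixels at or above the median total, 84 with other pixels matched in total (5681 genes tested), 173 with DESeq2 and 8 with no replicate block for the section. Without single sections they ranged from 99 to 447. All 7 rule genes passed when left out of the rule without any 1 section (7 to 7), 4 of 4 tested passed with matched totals and 1 with no replicate block. The 58 width differences became 36 at the top 5%, 23 with at least 3 counts, 21 at the median total, 2 with matched totals, 27 with 2 different rule genes, 0 with DESeq2 (279 unadjusted) and 33 with the replicate block, and ranged from 11 to 115 without single sections. The 17 stage differences became 11 at the top 5%, 6 with at least 3 counts, 6 with matched totals, 6 without liver-rich pixels, 0 with DESeq2 (56 unadjusted) and 11 with no filter, and ranged from 7 to 33; no value can be had without E12. The causes were not tested. Of the named genes, Pax6 and Myh6 changed sign. The Pax6 width difference was -2.87 without E11 10 µm replicate 1 and up to 3.28 without E11 25 µm replicate 1. The Myh6 stage difference was -0.28 without heart-rich pixels, which Myh6 helped to pick.

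Replicate numbers at E11 are shared between pixel widths with no stated pairing. Deviations of same-numbered sections correlated at 0.0673 in vessel-rich sums and 0.111 in the others over 11266 genes, and the replicate block applies to the width contrast only.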
